A study of Rattus norvegicus with 9 samples.

Results

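The genes described here encode the receptors that cardiac muscle cells use to sense adrenaline, noradrenaline and drugs that mimic them, with the proteins that carry the alpha-1 signal inward. They were chosen by symbol from the count table, and all 9 of 9 listed genes had a row, among 17327 rows in all, and passed the filter that left 11873 genes tested. They are the alpha-1 receptor genes Adra1a, Adra1b and Adra1d, the beta-1 receptor gene Adrb1, the G protein genes Gnaq and Gna11, the phospholipase C gene Plcb1 and the protein kinase C genes Prkca and Prkce.

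The cells were neonatal rat ventricular myocytes, heart muscle cells taken into primary culture from newborn rats. Total RNA of 9 samples was sequenced. Of these samples, 3 received vehicle, 3 received 50 µM phenylephrine, a drug that activates alpha-1 receptors, and 3 received 10 nM IGF1, a growth factor that acts through a receptor tyrosine kinase, all for 48 hours. The labels name no genotype, rat strain or animal, do not say what the vehicle was, and do not tie the 3 samples of a group to separate cultures or litters. The p-values therefore rest on how far these samples differ, and that spread may be technical alone.

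An alpha-1 receptor bound by its agonist activates G proteins of the Gq family, whose alpha subunits are encoded by Gnaq and Gna11. These switch on phospholipase C beta, which splits a membrane lipid into inositol trisphosphate, a trigger of calcium release, and diacylglycerol, which activates protein kinase C. The beta-1 receptor works through another G protein, Gs, which raises cyclic AMP and drives the heart's rate and force. In neonatal rat cardiomyocytes the Gq branch is a classical route to hypertrophic growth.

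Total counts ran from 31274396 to 48505265 per sample, and a level of 1 CPM (reads per 1e6 reads, scaled by the normalization factors) rested on 29.1 to 51.6 reads. Vehicle samples had at least 38659775 counts and factors of 1.06 to 1.08. Phenylephrine samples had at most 33607863 counts and factors of 0.931 to 0.936, so depth and scaling cannot be told apart from that treatment. IGF1 replicate 1 had 31987197 counts and a factor of 0.950, and the other IGF1 samples had factors of 1.03 to 1.04. IGF1 replicate 1 stood apart from the other IGF1 samples, with 226 to 266 genes over 1.5-fold different, where the other pairs within a group had 6 to 30 such genes. All 10 cardiomyocyte markers were present. Their summed level was 24154 to 26186 CPM with vehicle, 31513 to 32191 CPM with phenylephrine and 31023 to 38038 CPM with IGF1. By edgeR at an adjusted p of 0.05, 6 of them rose and 3 fell (Tnni3, Ryr2 and Pln) with phenylephrine. With IGF1 7 rose and 1 fell (Pln). These calls are 90% and 80%, beside 56.8% and 48.1% of all genes tested. The summed fibroblast markers lay at 8275 to 10771 CPM over all samples, so transcripts typical of fibroblasts were present too. In such bulk samples, fewer cells of a type and less RNA per cell cannot be told apart.

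Phenylephrine against vehicle asks how the genes of the alpha-1 pathway differ in cells exposed to its agonist. Of the 9 genes, 2 rose (Adra1a and Prkca), 5 fell (Adra1b, Adra1d, Adrb1, Plcb1 and Prkce) and 2 missed the threshold (Gnaq and Gna11), by edgeR's quasi-likelihood test at an adjusted p of 0.05. These calls are 77.8% of the genes, beside 56.8% of all genes tested. The background by direction was 27.9% higher and 28.9% lower. The median log2 fold change of the 9 was -0.38, beside -0.03 over all genes. The vehicle and phenylephrine samples did not overlap for any of the 9 genes, which held for 66.6% of all genes. With scaling by library size only, the median over all genes was -0.22, 23.5% of all calls were higher in place of 49.1%, and 2 of the 9 genes rose and 6 fell. Of all genes, 14.7% rose and 48% fell under that scaling.

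**Figure D1:**
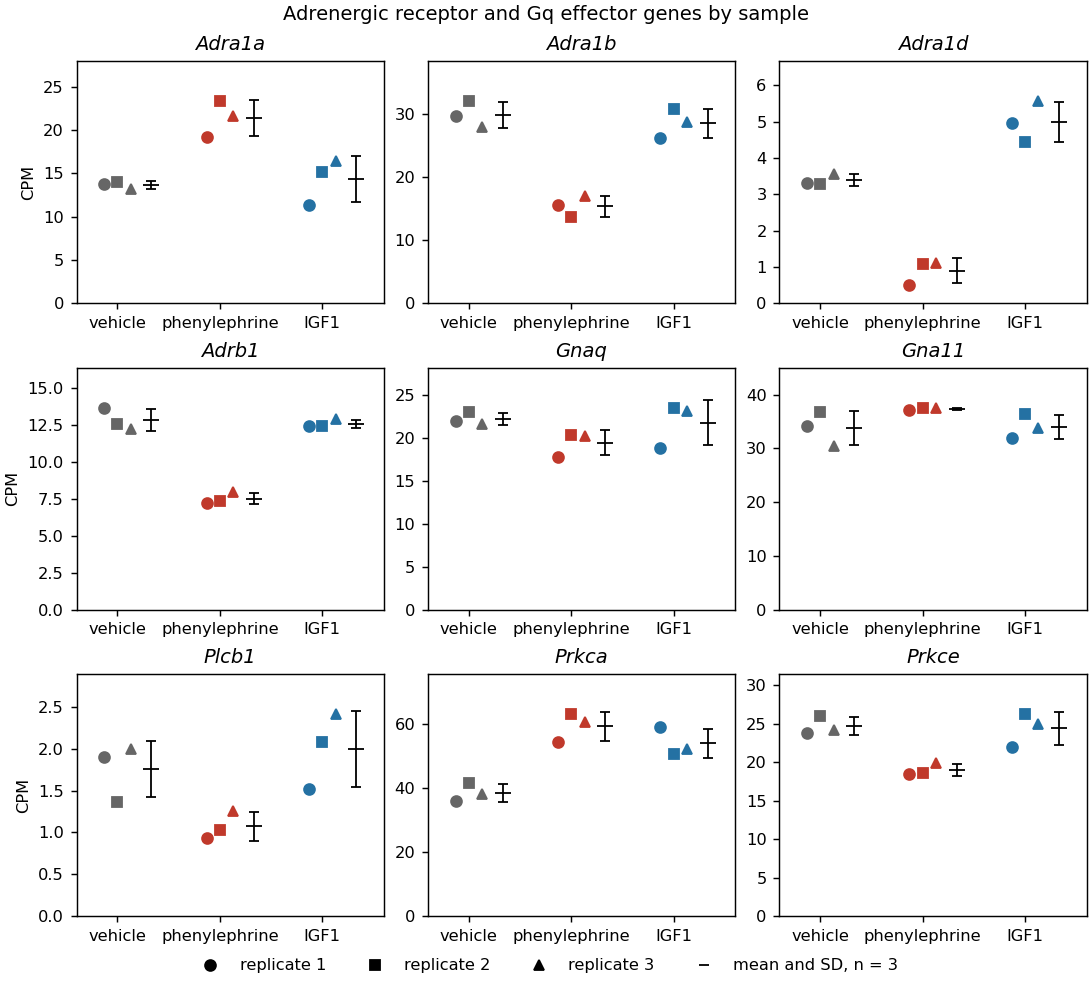
Level of each of the 9 genes in CPM (vertical axis, from 0) in the 9 samples, by group; symbols mark the replicate number and black bars the mean and SD of 3 samples. Adra1b, Adra1d and Adrb1 were lower in every phenylephrine sample than in any vehicle or IGF1 sample, and Adra1a was higher.

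Adra1a encodes the alpha-1A receptor. Its level was 13.7, 14.0 and 13.2 CPM in vehicle replicates 1 to 3, and 19.2, 23.3 and 21.6 CPM with phenylephrine. With IGF1 it was 11.3, 15.2 and 16.4 CPM. The phenylephrine samples were the 3 highest, and the IGF1 samples lay on both sides of the vehicle samples. Adra1a rose from 13.6 ± 0.43 to 21.4 ± 2.05 CPM (SD, n = 3) with phenylephrine, or 1.57-fold (log2 0.65, SE 0.11, edgeR adjusted p = 0.00022). It was also higher than with IGF1 (log2 0.57, adjusted p = 7.0e-04).

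Adra1b encodes the alpha-1B receptor, which couples to the same G proteins. Its level was 29.8, 32.0 and 28.0 CPM with vehicle, 15.5, 13.6 and 17.0 CPM with phenylephrine and 26.2, 30.8 and 28.8 CPM with IGF1. The phenylephrine samples were the 3 lowest, and the vehicle and IGF1 samples overlapped. The fall with phenylephrine was 1.94-fold (log2 -0.96, SE 0.09, edgeR adjusted p = 3.3e-07), and it was lower than with IGF1 too (log2 -0.90, adjusted p = 6.6e-07).

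Adra1d encodes the alpha-1D receptor, best known from arteries. It had 134 to 184 reads per vehicle sample and 15, 34 and 34 reads per phenylephrine sample, so its values there are the least precise of the receptor genes. Its level was 3.32, 3.27 and 3.57 CPM with vehicle, 0.52, 1.09 and 1.10 CPM with phenylephrine, and 4.97, 4.45 and 5.55 CPM with IGF1. The 3 groups did not overlap, in the order phenylephrine, vehicle, IGF1. Adra1d fell 3.73-fold with phenylephrine (log2 -1.90, SE 0.22, edgeR adjusted p = 4.3e-06), where 4.14% of all genes tested were called lower by at least 2-fold. With IGF1 it rose 1.47-fold (log2 0.56, SE 0.18, adjusted p = 0.018), a call that ended without vehicle replicate 1 (adjusted p = 0.065), vehicle replicate 2 (0.063) or IGF1 replicate 3 (0.085, log2 0.46), and with scaling by library size only (0.051). Without IGF1 replicate 1 the log2 fold change was 0.56 (adjusted p = 0.0082). Between phenylephrine and IGF1, Adra1d differed 5.50-fold (log2 -2.46, SE 0.22, adjusted p = 2.4e-07).

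The share of each gene in the alpha-1 receptor reads was computed next. Adra1a gave 28.4% to 29.5% of the reads of the 3 genes in the vehicle samples, 54.4% to 61.3% with phenylephrine and 26.6% to 32.4% with IGF1. Adra1b gave 62.6% to 65.0%, 35.9% to 44.1% and 56.7% to 61.7% in the same order, and Adra1d 6.64% to 7.98%, 1.46% to 2.86% and 8.83% to 11.7%. These shares are not corrected for transcript length, so they compare samples and not the abundance of the receptors. The summed level of the 3 genes was 46.9 ± 2.32 CPM with vehicle, 37.7 ± 2.29 CPM with phenylephrine and 47.9 ± 4.65 CPM with IGF1 (SD, n = 3).

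**Figure D2:**
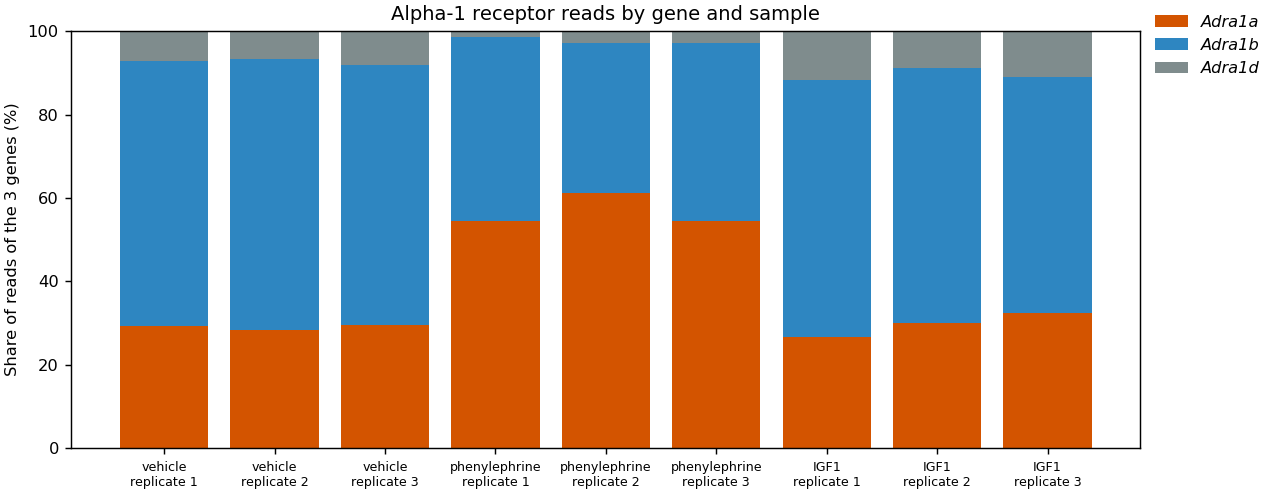
Share of the reads of Adra1a, Adra1b and Adra1d that each gene gave (vertical axis, percent) in each of the 9 samples. Adra1a took 54.4% to 61.3% of them in the phenylephrine samples and at most 32.4% in the others.

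The ratio of Adra1a to Adra1b reads within a sample does not depend on how libraries are scaled. On the log2 scale it was -1.13 ± 0.06 with vehicle, 0.47 ± 0.26 with phenylephrine and -1.01 ± 0.20 with IGF1 (SD, n = 3). It differed over the 3 groups (exact permutation test over 1680 arrangements, p = 0.018, Benjamini-Hochberg adjusted over 4 ratios 0.024), with the phenylephrine samples above all others by a mean of 1.61 against vehicle. Between 2 groups of 3 the two-sided exact test cannot go below p = 0.10, the value found for phenylephrine against vehicle and against IGF1. For IGF1 against vehicle the same exact test gave p = 0.50 at a difference of 0.12.

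Adrb1 encodes the beta-1 receptor, the main target of noradrenaline in heart muscle. Its level was 13.6, 12.5 and 12.2 CPM with vehicle, 7.25, 7.32 and 7.95 CPM with phenylephrine and 12.4, 12.4 and 12.9 CPM with IGF1. The phenylephrine samples were again the 3 lowest, and the IGF1 values lay within the vehicle range. Adrb1 fell 1.71-fold with phenylephrine (log2 -0.77, SE 0.09, edgeR adjusted p = 2.7e-06) and differed from IGF1 by log2 -0.74 (adjusted p = 4.2e-06). With IGF1 the log2 fold change was -0.03 (SE 0.08, adjusted p = 0.81).

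The alpha-2 receptor genes Adra2a and Adra2b, which couple to inhibitory G proteins, lay near the filter and passed the threshold against vehicle with neither treatment. Adra2a was at 0.79 ± 0.16 CPM with vehicle, 0.96 ± 0.36 CPM with phenylephrine and 0.42 ± 0.29 CPM with IGF1 (SD, n = 3). Adra2b was at 0.49 ± 0.22, 0.47 ± 0.13 and 0.56 ± 0.09 CPM in the same order. Adra2a was higher with phenylephrine than with IGF1 (log2 1.26, SE 0.51, edgeR adjusted p = 0.0498), on 4 to 38 reads per sample and with overlapping samples. Both genes were named after their values were seen, and this difference was not recomputed under the alternatives.

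The sequences just upstream of the receptor genes that fell with phenylephrine are shown beside that of Prkca, which rose, to set genes that moved in opposite directions side by side. Each is the 250 bases before the gene's start from RefSeq's GRCr8 table, 5′ to 3′. This build is not the one named for the counts, and 8 of the 9 genes matched an entry in the table, Adra1a being the other. Capitals mark a GC box.
Adra1b (RefSeq GRCr8, chr10:28814348-28814597, strand -): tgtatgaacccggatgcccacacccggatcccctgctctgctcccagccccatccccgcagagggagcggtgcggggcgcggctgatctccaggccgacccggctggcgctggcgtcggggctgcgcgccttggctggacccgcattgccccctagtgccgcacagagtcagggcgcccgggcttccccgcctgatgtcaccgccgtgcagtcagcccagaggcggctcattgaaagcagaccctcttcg
Adra1d (RefSeq GRCr8, chr3:139262332-139262581, strand -): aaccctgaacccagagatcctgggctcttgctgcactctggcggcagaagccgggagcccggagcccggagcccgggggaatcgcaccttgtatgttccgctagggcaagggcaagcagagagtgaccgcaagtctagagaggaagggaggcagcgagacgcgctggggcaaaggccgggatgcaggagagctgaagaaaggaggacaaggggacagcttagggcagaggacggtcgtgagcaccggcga
Adrb1 (RefSeq GRCr8, chr1:265776853-265777102, strand +): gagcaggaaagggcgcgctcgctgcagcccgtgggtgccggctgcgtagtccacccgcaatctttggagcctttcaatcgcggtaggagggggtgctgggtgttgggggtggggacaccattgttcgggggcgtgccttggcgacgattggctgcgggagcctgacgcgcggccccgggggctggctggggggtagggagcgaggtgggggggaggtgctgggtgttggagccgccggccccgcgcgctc
Prkca (RefSeq GRCr8, chr10:93787328-93787577, strand -): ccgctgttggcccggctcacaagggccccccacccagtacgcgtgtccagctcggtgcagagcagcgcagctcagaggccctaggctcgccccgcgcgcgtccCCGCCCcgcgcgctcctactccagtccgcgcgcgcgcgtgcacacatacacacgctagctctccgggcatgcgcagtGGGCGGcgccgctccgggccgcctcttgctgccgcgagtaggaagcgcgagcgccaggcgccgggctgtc

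These windows were searched on both strands for the cyclic AMP response element (TGACGTCA), the AP-1 site (TGAGTCA), the M-CAT element (CATTCC), the GATA site (AGATAA), the NFAT core (GGAAAA), the E-box (CACGTG), the GC box (GGGCGG) and the TATA box (TATAAA), no one of which contains another. None of these letters stood in the windows of Adra1b, Adra1d and Adrb1. Prkca had 2 GC boxes, a motif found in 30.5% of all 33469 windows of this length. The windows not printed did not follow the direction of change: Prkce, which fell, had 1 GC box, and Plcb1, which fell, had 1 M-CAT element and 1 TATA box. Gnaq, not called, had 1 GC box, and Gna11, not called, had 2 and 1 M-CAT element. The NFAT core stood in 21.6%, the TATA box in 12.9%, the M-CAT element in 12.1%, the GATA site in 10.3%, the E-box in 5.59%, the AP-1 site in 4.05% and the cyclic AMP element in 1.59%. GC content was 70.8% for Adra1b, 64% for Adra1d, 72% for Adrb1 and 74.8% for Prkca, against a median of 51.2% over all windows. A match or its absence describes these letters only.

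Gnaq and Gna11 encode the alpha subunits that couple alpha-1 receptors to phospholipase C. Gnaq was at 21.97, 23.1 and 21.7 CPM with vehicle, 17.8, 20.4 and 20.3 CPM with phenylephrine and 18.8, 23.6 and 23.2 CPM with IGF1. Gna11 was at 34.2, 36.7 and 30.4 CPM with vehicle, 37.2, 37.4 and 37.5 CPM with phenylephrine and 31.9, 36.4 and 33.8 CPM with IGF1. Every phenylephrine sample lay below the vehicle samples for Gnaq and above them for Gna11, by small amounts. The log2 fold changes were -0.19 (SE 0.09) for Gnaq and 0.15 (SE 0.07) for Gna11, and neither passed (edgeR adjusted p = 0.072 and 0.082).

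Both genes passed when IGF1 replicate 1, which enters the shared spread, was left out (edgeR adjusted p = 0.011 for Gnaq and 0.019 for Gna11), and when vehicle and phenylephrine samples were fitted alone (0.016 and 0.016). Gnaq also passed without IGF1 replicate 2 (0.045), and Gna11 without vehicle replicate 2 (0.035). With scaling by library size only, Gnaq was at log2 -0.38 (adjusted p = 0.0065) and Gna11 changed sign to -0.046 (0.64). The log2 ratio of Gnaq to Gna11 reads, free of scaling, was -0.60 ± 0.10 with vehicle, -0.94 ± 0.10 with phenylephrine and -0.64 ± 0.11 with IGF1 (SD, n = 3). It differed over the groups (exact permutation p = 0.025, adjusted 0.025), a call that ended without phenylephrine replicate 1 (adjusted p = 0.061).

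Plcb1, a phospholipase C beta gene that Gq proteins activate, had few reads, at 27 to 39 per phenylephrine sample. Its level was 1.90, 1.37 and 2.00 CPM with vehicle, 0.93, 1.02 and 1.26 CPM with phenylephrine and 1.51, 2.08 and 2.41 CPM with IGF1. The phenylephrine samples were the 3 lowest, the highest of them close to vehicle replicate 2. The fall was 1.64-fold (log2 -0.72, SE 0.25, edgeR adjusted p = 0.025). It did not pass without vehicle replicate 1 or 3 (adjusted p = 0.069 and 0.084) or without phenylephrine replicate 1 or 2 (0.081 and 0.067). Against IGF1 the difference was log2 -0.91 (SE 0.25, adjusted p = 0.0066). Another phospholipase C beta gene, Plcb4, was at 169 CPM with vehicle and 159 CPM with phenylephrine (log2 -0.09, edgeR adjusted p = 0.062). Plcb3 fell from 42.6 to 36.2 CPM with phenylephrine (log2 -0.24, adjusted p = 0.010). With IGF1 both fell, by log2 -0.10 for Plcb4 (adjusted p = 0.037) and -0.40 for Plcb3 (2.5e-04). Plcb2, at 1.19 CPM with vehicle, was called with neither treatment.

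Prkca and Prkce encode protein kinase C alpha, which needs calcium and diacylglycerol, and protein kinase C epsilon, which needs diacylglycerol alone. Prkca was at 35.8, 41.6 and 38.0 CPM with vehicle, 54.3, 63.0 and 60.7 CPM with phenylephrine and 59.1, 50.7 and 52.2 CPM with IGF1. Every treated sample lay above every vehicle sample, and the 2 treatments overlapped. Prkca rose 1.55-fold with phenylephrine (log2 0.63, SE 0.07, edgeR adjusted p = 5.7e-06) and 1.40-fold with IGF1 (log2 0.49, SE 0.07, adjusted p = 7.4e-05, and log2 0.42 without IGF1 replicate 1).

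The difference between the treatments in Prkca was log2 0.14 (SE 0.07, edgeR adjusted p = 0.12). It passed without IGF1 replicate 1 (log2 0.21, adjusted p = 0.0027) or phenylephrine replicate 1 (0.20, adjusted p = 0.047).

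Prkce was at 23.8, 26.0 and 24.2 CPM with vehicle, 18.4, 18.6 and 19.9 CPM with phenylephrine and 22.1, 26.2 and 24.96 CPM with IGF1. The phenylephrine samples were the 3 lowest. Prkce fell 1.30-fold with phenylephrine (log2 -0.38, SE 0.07, edgeR adjusted p = 5.0e-04) and was lower than with IGF1 too (log2 -0.37, adjusted p = 7.0e-04). With scaling by library size only, the fall against vehicle was log2 -0.57. The log2 ratio of Prkca to Prkce reads was 0.64 ± 0.05 with vehicle, 1.64 ± 0.11 with phenylephrine and 1.15 ± 0.25 with IGF1, with no overlap between any 2 groups (exact permutation p = 0.0036, the smallest these arrangements can give, adjusted 0.0071). IGF1 replicate 1 had the highest ratio of its group, 1.42, against 0.95 and 1.06.

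**Figure D3:**
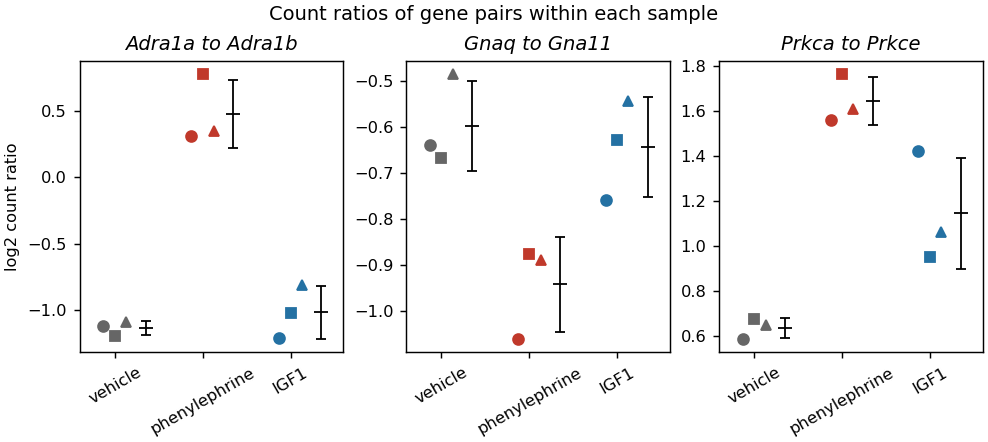
Log2 ratio of the read counts of 2 genes within each sample (vertical axes differ by panel), by group, with symbols for replicates 1 to 3 and bars for mean and SD. In every panel the 3 phenylephrine samples lay apart from the 3 vehicle samples, and the IGF1 samples lay apart from vehicle for Prkca to Prkce.

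IGF1 against vehicle gives the levels under a stimulus that acts through another class of receptor. With all samples, Adra1d and Prkca passed the threshold, both higher, so that 22.2% of the 9 genes were called beside 48.1% of all genes tested (24.7% higher and 23.4% lower). With scaling by library size only, 36.0% of all calls were higher in place of 51.3%. Prkca alone of the 9 was then called, beside 47.5% of all genes. The samples did not overlap for those 2 of the 9 genes, which held for 56.5% of all genes. The median log2 fold change was 0.01 over the 9 genes and -0.0018 over all genes. For the 7 genes that missed the threshold, log2 fold changes ran from -0.06 for Adra1b (SE 0.08) to 0.20 for Plcb1 (SE 0.23).

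IGF1 replicate 1 had the lowest level of its group for 7 of the 9 genes, and for 4 of them (Adra1a, Adra1b, Gnaq and Prkce) it lay below every vehicle sample. The same shares over all genes were not computed, so these counts may describe the sample and not the 9 genes. Without that sample Adra1a passed as higher with IGF1 (log2 0.21, edgeR adjusted p = 0.028), so that 3 genes rose and none fell, beside 27.4% higher and 26.6% lower over all genes in that fit. The log2 fold changes of Gnaq and Prkce (-0.02 and -0.01) then became 0.071 and 0.054, and neither passed.

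Phenylephrine against IGF1 tests whether the treatments differed. Of the 9 genes, Adra1a was higher with phenylephrine and Adra1b, Adra1d, Adrb1, Plcb1 and Prkce were lower, which is 66.7% called beside 54.2% of all genes (27.1% higher and 27.1% lower). With scaling by library size only, 32.8% of all calls were higher in place of 49.9%. Of the 9 genes 1 was then higher and 6 lower, beside 18% and 36.8% of all genes. The samples did not overlap for 7 of the 9 genes, against 58.8% of all genes. Without IGF1 replicate 1, 2 genes were higher and 6 lower, beside 30.4% and 30.2% of all genes in that fit. Both treatments were set against the same vehicle samples, so their fold changes share error.

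**Figure D4:**
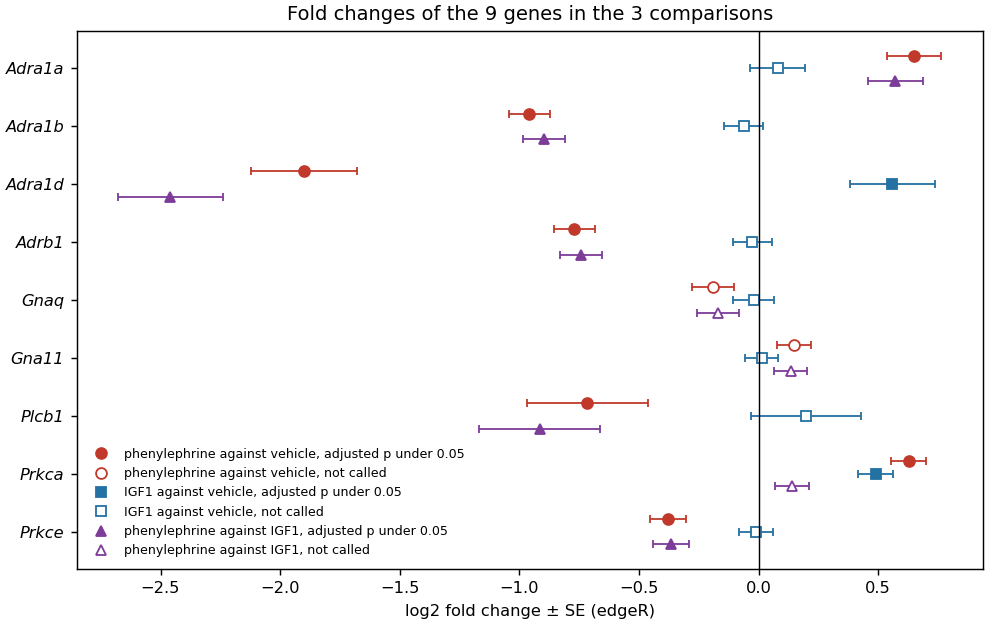
Log2 fold change with SE (horizontal axis) of each gene in the 3 comparisons, with filled symbols for an edgeR adjusted p under 0.05. Phenylephrine moved 7 genes by -1.90 to 0.65, IGF1 moved Adra1d and Prkca, and between the treatments 6 genes were called, with log2 differences of -2.46 to 0.57.

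Markers of smooth muscle and pericytes, cells that also use alpha-1 receptors, were higher in sum with phenylephrine. Their summed level was 3598 to 3671 CPM with vehicle, 7170 to 7418 CPM with phenylephrine and 3814 to 5616 CPM with IGF1. IGF1 replicate 1 alone gave 5616 CPM, and the other IGF1 samples were at 3814 and 3895 CPM. With phenylephrine 5 of 10 rose (Acta2, Tagln, Cnn1, Des and Cspg4) and 2 fell (Myh11 at log2 -0.30 and Smtn at -0.88). These calls are 70% of the list, beside 56.8% of all genes, and Pdgfrb, Rgs5 and Notch3 were not called. Without Des, which heart muscle also makes, the sums were 1960 to 2063, 2799 to 2861 and 1791 to 2358 CPM, the last value again from IGF1 replicate 1 beside 1791 and 1847 CPM. Of the markers left, Acta2 and Tagln had the highest means with vehicle, at 806 and 705 CPM. Which cells made the markers left in this sum was not tested, and heart muscle cells may be among them. Fibroblast markers summed to 9389 to 10771 CPM with vehicle and 8275 to 8298 CPM with phenylephrine. Of 9 tested, 1 was higher and 5 lower, or 66.7% called. Endothelial markers summed to 180 to 202, 191 to 208 and 127 to 130 CPM in the order vehicle, phenylephrine and IGF1. No marker of these lists was at 0 in all samples. The fibroblast marker Col1a2 had 1 to 10 reads per sample and was not tested, beside 90603 to 187526 reads for Col1a1. The part of these cell types in the receptor changes was not tested.

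Genes whose pattern over the 9 samples was closest to a receptor's were found by the root mean square difference of centred log2 CPM, among genes of at least 5 CPM. For Adra1a they were Ppm1e, Galnt4 and Nid2 (0.11, 0.12 and 0.13). For Adra1b they were Podxl, the endothelin receptor gene Ednra and Ptprs (0.089, 0.090 and 0.096). Ednra went from 211 CPM with vehicle to 107 CPM with phenylephrine and 187 CPM with IGF1. For Adra1d they were Ybx2, the adenylyl cyclase gene Adcy1 and Capn12, at the wider distances of 0.19, 0.36 and 0.37. For Adrb1 they were Slc22a17, Pstk and Nudt16l1 (0.066, 0.068 and 0.070).

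Beyond the 9 genes, 71 other genes of adrenergic, Gq and cyclic AMP signalling were listed in 7 groups, of which 64 were tested. With phenylephrine 10 rose and 23 fell, 51.6% called, with a median log2 fold change of -0.09. With scaling by library size only, 4 rose and 34 fell, where 14.7% of all genes rose and 48% fell. With IGF1 13 rose and 16 fell, 45.3% called, with a median of -0.06. With that scaling 9 rose and 23 fell, where 17.1% of all genes rose and 30.4% fell. In the main fit 56.8% and 48.1% of all genes were called with phenylephrine and IGF1, with medians of -0.03 and -0.0018.

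**Figure D5:**
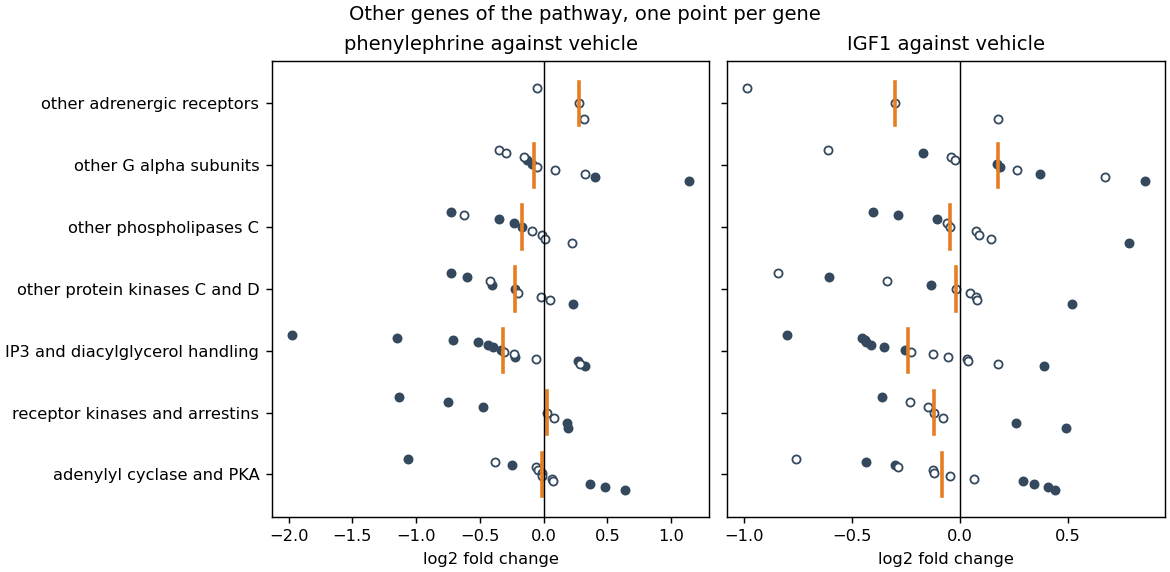
Log2 fold change against vehicle (horizontal axes) of the 64 tested pathway genes in 7 lists, with filled points for an edgeR adjusted p under 0.05 and an orange bar for each list's median. The group that handles inositol trisphosphate and diacylglycerol had the lowest median with phenylephrine, -0.32.

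Among other G alpha genes, 2 of 10 rose and 2 fell with phenylephrine, and 4 rose and 1 fell with IGF1. That is 40% and 50% called, beside 56.8% and 48.1% of all genes. Gnao1, of the Gi/o family, rose from 24.1 ± 0.42 to 53.2 ± 1.81 CPM with phenylephrine (SD, n = 3; log2 1.14, edgeR adjusted p = 0.0024). With IGF1 Gnao1 rose too, to 44.0 ± 13.7 CPM (34.8 to 59.7 CPM; log2 0.86, adjusted p = 0.011). The treatments overlapped and were not called different (log2 0.29, adjusted p = 0.26). Gna12 fell with IGF1 (log2 -0.17, adjusted p = 0.0015). Among other phospholipases C, 4 of 9 fell and none rose with phenylephrine, while 1 rose and 3 fell with IGF1. The share called was 44.4% with each treatment. Plcg1, which growth factor receptors activate, fell from 262 ± 4.89 to 158.7 ± 4.46 CPM with phenylephrine (log2 -0.72, adjusted p = 2.4e-08), and Plcd4 rose with IGF1 (log2 0.78, adjusted p = 8.5e-06).

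Of 9 tested genes for other protein kinases C and D, 1 rose and 4 fell with phenylephrine, and 1 rose and 2 fell with IGF1. The shares called were 55.6% and 33.3%, beside 56.8% and 48.1% of all genes. Prkd1, the gene of protein kinase D1, which protein kinase C activates, fell from 15.8 ± 0.70 to 9.58 ± 0.84 CPM with phenylephrine (SD, n = 3; log2 -0.73, edgeR adjusted p = 5.8e-06).

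Of 14 tested genes that handle inositol trisphosphate and diacylglycerol, 2 rose and 8 fell with phenylephrine, and 1 rose and 7 fell with IGF1. The shares called were 71.4% and 57.1%, beside 56.8% and 48.1% of all genes. The diacylglycerol kinase gene Dgkb fell most with phenylephrine, from 48.2 ± 2.49 to 12.3 ± 0.64 CPM or 3.93-fold (SD, n = 3; log2 -1.98, edgeR adjusted p = 5.1e-11). With IGF1 Dgkb fell by less, to 40.3 ± 3.37 CPM (log2 -0.26, adjusted p = 0.0049). Inpp5a, a phosphatase that removes inositol trisphosphate, rose with IGF1 from 173 ± 1.24 to 227 ± 19.7 CPM (log2 0.39, adjusted p = 3.4e-05). With phenylephrine Inpp5a rose too, to 216 ± 9.76 CPM (log2 0.32, adjusted p = 1.5e-04).

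Among 7 genes for receptor kinases and arrestins, which switch activated receptors off, 2 rose and 3 fell with phenylephrine. With IGF1 2 rose and 1 fell. That is 71.4% and 42.9% called, beside 56.8% and 48.1% of all genes. The receptor kinase gene Grk3 fell from 3.53 ± 0.14 to 1.60 ± 0.51 CPM with phenylephrine (SD, n = 3; log2 -1.14, edgeR adjusted p = 3.8e-04). It was 4.94 ± 0.87 CPM with IGF1 (log2 0.49, adjusted p = 0.041), a call that ended when any 1 vehicle sample, phenylephrine replicate 1, or IGF1 replicate 2 or 3 was left out (adjusted p = 0.051 to 0.15), among other alternatives.

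On the cyclic AMP side, 3 of 12 tested genes rose and 2 fell with phenylephrine, and 4 rose and 2 fell with IGF1. These calls are 41.7% and 50% of the tested genes, beside 56.8% and 48.1% of all genes. Adcy1, an adenylyl cyclase gene outside the list, went from 5.02 CPM with vehicle to 1.28 CPM with phenylephrine (log2 -1.96). With IGF1 Adcy1 was at 9.23 CPM (log2 0.90). Adcy1 was found by the likeness of its pattern to that of Adra1d, so both directions follow from that choice. Adcy5, an adenylyl cyclase that beta-1 receptors activate in heart muscle, fell from 427 ± 12.9 to 205 ± 4.71 CPM with phenylephrine (SD, n = 3; 2.09-fold, log2 -1.06, edgeR adjusted p = 2.0e-08). With IGF1 Adcy5 fell by less, to 347 ± 39.2 CPM (log2 -0.30, adjusted p = 0.0018). Prkar2b, a regulatory subunit of protein kinase A, rose from 43.4 ± 1.65 to 67.4 ± 0.67 CPM with phenylephrine (log2 0.63, adjusted p = 3.2e-08). With IGF1 Prkar2b rose too, to 58.9 ± 1.85 CPM (log2 0.44, adjusted p = 1.7e-06).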

How the data were processed

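RNA sequencing of 9 samples in 3 groups of 3 was analysed, with groups and replicate numbers taken from the sample titles. The authors deposited 1 table of gene-level counts, whole numbers that are not normalized. The submitters' processing notes list DESeq, HTSeq and STAR and the build rn5. Versions, the role of each tool and the use of strand are not given in the sources used here, so reads of a gene and of an overlapping antisense gene cannot be told apart. Per the labels' protocols, libraries were made with a NuGEN Ovation kit.

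Genes were filtered by filterByExpr (minimum count 10, total 15), normalized by TMM and fitted over all 9 samples with the robust quasi-likelihood model of edgeR 4.0.16 in R 4.3.3. The Benjamini-Hochberg adjustment covered the 11873 genes that passed the filter, at a threshold of 0.05. An SE was derived from the fold change and the F statistic (size of the log2 value over the root of F). Ratios took 0.5 added to each count, and their p-values were adjusted over 4 ratios, of which 3 are reported. Alternatives were DESeq2 1.42.0, limma-voom (limma 3.58.1), other scaling, filters and samples in the fit, no robust estimation, the replicate number as a block and leaving out each sample.

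The 9 genes and the lists were chosen with earlier results of these data known. All 9 genes are named. From each pathway list the text names the genes with the highest rise and the lowest fall against vehicle among those called, at 1 CPM or more and with no overlap. Values of Plcb2, Plcb3, Plcb4 and Adcy1 are given besides. So are those of Gnao1, Dgkb, Adcy5 and Prkar2b with IGF1 and of Inpp5a with phenylephrine. All these were picked after their values were seen and were not recomputed under the alternatives. Of 71 listed pathway genes, 68 had a row and 64 were tested. The receptor kinase genes Grk2 and Grk3 were read under the older symbols Adrbk1 and Adrbk2. Results for 2 of the pathway genes are not reported here.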

Additional observations from a re-analysis of the deposited data

How the results depend on the processing

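Of 486 fold changes of the 9 genes under an alternative, 456 kept their direction and their side of the threshold, 8 lost and 13 gained a call, and 9 changed sign, each of them for a gene and comparison that was not called. The calls of Adra1a, Adra1b, Adra1d, Adrb1, Prkca and Prkce with phenylephrine against vehicle held under all alternatives run. Scaling by library size only gave 1751 genes higher and 5696 lower, and 4 pathway genes higher and 34 lower (10 and 23 with TMM), with phenylephrine. Under it 1 of the 9 genes was higher with IGF1, beside 17.1% of all genes. With phenylephrine 6 pathway genes were higher than with IGF1 and 23 lower (10 and 17 with TMM). Over all genes 2132 were higher (18%) and 36.8% lower in that comparison. Gna11 turned to log2 -0.046 with phenylephrine and -0.068 with IGF1 under that scaling. With 1 sample left out, 1 to 3 of the 9 genes were higher with IGF1, beside 20.1% to 27.4% of all genes. In these fits 1 to 2 were higher with phenylephrine than with IGF1, beside 23.4% to 30.4% of all genes. The change of the Gnaq to Gna11 ratio was then -0.38 to -0.29.

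In IGF1 against vehicle, with 1 sample left out, log2 fold changes crossed 0 for Adra1a (-0.040 to 0.21), Adrb1 (-0.067 to 0.012), Gnaq (-0.083 to 0.071), Gna11 (-0.066 to 0.068, with -0.045 without IGF1 replicate 2) and Prkce (-0.073 to 0.054, with 0.018 without vehicle replicate 2). The cause was not tested. No pairing by replicate number was seen. Deviations from the group means correlated at -0.073 to 0.023 for same numbers and -0.073 to 0.098 for different numbers. The best match in another group had the same number in 3 of 18 cases. These values cannot show whether same-numbered samples shared a culture or litter, because an effect on few genes would barely move them. With the replicate block, 2 of the 9 genes rose and 6 fell with phenylephrine (Gnaq at log2 -0.20, edgeR adjusted p = 0.038), and the counts were 2 and 0 with IGF1 and 1 and 5 between the treatments. All genes called with phenylephrine then numbered 3253 higher and 3395 lower (27.4% and 28.6%). The shares of all genes were 24.2% and 22.9% with IGF1, and 26.7% and 26.5% between the treatments. Depth limits Adra1d and Plcb1, at 15 to 39 reads per phenylephrine sample.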

Other observations

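Besides Adra1d, pathway genes called in opposite directions against vehicle by the 2 treatments included Prkci, Grk3 and Gnai2. They were picked after their values were seen, and both fold changes share the vehicle samples.

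Prkci, which encodes an atypical protein kinase C that needs neither calcium nor diacylglycerol, was at 66.6 ± 1.99, 78.3 ± 2.28 and 60.8 ± 1.69 CPM with vehicle, phenylephrine and IGF1 (SD, n = 3). The treatments differed by log2 0.37 (edgeR adjusted p = 6.5e-06). The rise of Prkci with phenylephrine was log2 0.23, and with scaling by library size only 0.040 (adjusted p = 0.56). Its fall with IGF1 was not called without vehicle replicate 2 (adjusted p = 0.074).

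Gnai2, an inhibitory G alpha gene, was at 516 ± 9.13, 484 ± 2.58 and 587 ± 5.04 CPM in the same order (log2 -0.28 between the treatments, edgeR adjusted p = 1.7e-05). Its fall with phenylephrine was log2 -0.094 (adjusted p = 0.043), a call that ended without vehicle replicate 1 or 2 or any 1 phenylephrine sample (0.076 to 0.12). Its rise with IGF1 was not called with scaling by library size only (0.068). Grk3 differed between the treatments by log2 -1.63 (adjusted p = 1.3e-05). The direct difference between the treatments was called under every alternative run for these 3 genes.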
